A study of Homo sapiens with 6 samples.

Results

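The genes described here are 42 of the 60675 genes in the deposited tables, those whose names start with AL353644, AL592188, FP236383 or FP671120. Of these, 11 are named after AL353644, 12 after AL592188, 12 after FP236383 and 7 after FP671120. They were chosen by their read counts, since together they took a large part of them, so their counts and shares are given as a description, and nothing is inferred from the size of the share itself. RNA came from OCI-AML2, an established human acute myeloid leukemia line transduced with short hairpin constructs, and was pulled down with J2, an antibody against double-stranded RNA. The groups are SUPV3L1 knockdown (SUPV3L1 encodes the mitochondrial RNA helicase SUV3) and PNPT1 knockdown (PNPT1 encodes the exoribonuclease PNPase), with 3 biological replicates each per the series' design text. Unmodified cells, cells with a control hairpin and RNA before precipitation were not analysed here. Fold changes are SUPV3L1 over PNPT1 knockdown, so neither group is a baseline, and what is higher in one knockdown could equally be lower in the other. The sources used here do not say whether libraries of a group share a hairpin. The titles give each library a different number, and the labels do not say what it marks.

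A gene with no approved symbol is often named after the genomic clone in which it was annotated, with a serial number after the point. Names that share a prefix therefore mark a shared stretch of sequenced DNA and not a shared function. Cytosolic ribosomal RNA is made by RNA polymerase I as one precursor that is cut into the 18S, 5.8S and 28S RNAs. Its genes lie in repeated copies on the short arms of the acrocentric chromosomes. Ribosomal RNA is abundant and folds into long base-paired helices. Reads from repeated genes align to many places, and how a program treats such reads decides what it reports for each copy.

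None of the 42 identifiers (0 of 42) was found in GENCODE 29, in the gene name table or in the RefSeq gene table used here, so no position, length, gene type or sequence of a member is given. GENCODE 29 (GRCh38) uses 7 of the 42 names for other identifiers, and these 7 genes carry other names, beginning CH507-, in the deposited table. All 7 are FP236383 or FP671120 names on chromosome 21, and none of the 7 is an AL353644 or AL592188 name. One is ENSG00000280441 (FP236383.1 in GENCODE 29, CH507-528H12.1 in the deposited table), a lincRNA at chromosome 21, 8380665 to 8410645, plus strand. Another is ENSG00000281383 (FP671120.4 in GENCODE 29, CH507-513H4.5 in the deposited table), at chromosome 21, 8254592 to 8255514, minus strand. FP671120.4 below is a different identifier, ENSG00000275530, and all members were matched by identifier. The RNA5-8S genes, which encode 5.8S ribosomal RNA, have positions, and 4 of the 8 copies lie on chromosome 21. The 4 copies on chromosome 21, among them 8395607 to 8395759 (ENSG00000275215) and 8439823 to 8439975 (ENSG00000278189), both on the plus strand, are identical over their 153 bases in GENCODE 29. The sequence is shown because these identical copies give a measured example of how the counts and the FPKM of a repeated gene part (described further on), and no letters are capitalized because none is singled out.
RNA5-8S copies on chromosome 21: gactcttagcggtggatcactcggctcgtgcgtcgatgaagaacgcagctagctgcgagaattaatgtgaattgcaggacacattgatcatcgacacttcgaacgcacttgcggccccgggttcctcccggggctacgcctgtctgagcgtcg

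The libraries held between 5852090 and 11361371 counts assigned to genes. The lowest total was in PNPT1 knockdown replicate 3, in which 7.06% of file entries were assigned and 80.1% were alignments that were not unique, against 11.96% to 16.0% assigned and 65.7% to 71.6% not unique in the other 5 libraries. That library also had counts for the fewest genes, 16620 against 20765 to 22393, and results resting on it are given with and without it. The targeted RNAs were checked first, in CPM, which are counts set relative to the size of the library, here with TMM factors. SUPV3L1 knockdown replicates had PNPT1 at 36.2, 27.5 and 21.4 CPM, against 7.64, 18.9 and 17.1 CPM for PNPT1 knockdown. For SUPV3L1 the values were 12.1, 12.2 and 9.39 CPM under SUPV3L1 knockdown, against 11.5, 18.1 and 25.8 CPM under PNPT1 knockdown, with overlap. With edgeR's quasi-likelihood test both had an adjusted p of 0.898, so neither was called. These values are from RNA pulled down with J2, and RNA before precipitation was not analysed here. They therefore do not show how far either knockdown lowered its target in the cells. Of 5 myeloid markers, PTPRC, CD33 and SPI1 were found in each library, at 21.2 CPM or more before TMM scaling. MPO was at 0.880 to 7.49 CPM and CD34 had 0 counts throughout. Markers of T, red, epithelial and stromal cells (CD3E, HBB, EPCAM, COL1A1) were at 1.08 CPM or less.

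One gene carried most of the group. AL353644.10 (ENSG00000277048) had 1075699, 1305123 and 918338 counts in the SUPV3L1 knockdown libraries, against 1197354, 2120631 and 1861695 in the PNPT1 knockdown libraries. It had the highest mean count and the highest mean FPKM of all genes, and it made up 84.4% to 91.8% of the group's counts in each library. FP671120.4 came next, with 47115, 51719 and 31360 counts in the SUPV3L1 knockdown libraries, against 48766, 76203 and 195701 in the PNPT1 knockdown libraries. PNPT1 knockdown replicate 3 stands out here, since FP671120.4 made up 8.88% of the group's counts in that library and 3.07% to 3.79% in the other 5. AL592188.11, FP236383.3 and FP236383.9 had the next highest mean shares, and 6 members reached a mean of 0.1% of all counts or more. At the other end, 17 members had a mean under 10 counts, and 8 of these had 0 counts in the 6 libraries. For assigned counts this allows at most 0.264 to 0.513 CPM (3 counts) depending on the library. It sets no limit on reads whose alignments were not unique, which were not counted. By clone, the AL353644 genes held 86.2% to 92.8% of the group's counts.

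The make-up by FPKM (the authors' second quantification, scaled to gene length and library size) was less uneven. AL353644.10 held 48.9% to 60.1% of the group's summed FPKM, FP236383.3 held 6.99% to 14.6% and FP671120.4 held 7.10% to 9.61%. The FP236383 genes together held 19.9% to 24.2% of the group's FPKM, while they held 2.01% to 4.28% of its counts. Of all 60675 genes, 25 had a mean of 10000 FPKM or more, and 13 of these were members. Of the 20 genes with the highest mean FPKM 11 were members, against 4 of the 20 with the highest mean count.

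The share of the group was then set against 2 totals, because a share falls whenever another part of the same total rises. Of all counts assigned to genes, the 42 genes took 10.9%, 14.6% and 10.9% in the SUPV3L1 knockdown libraries, against 15.9%, 22.1% and 37.7% in the PNPT1 knockdown libraries. All 3 SUPV3L1 knockdown libraries were lower on this total. Means of 12.1% ± 2.102 for SUPV3L1 knockdown and 25.2% ± 11.2 for PNPT1 knockdown (SD, n = 3 each) gave a difference of -13.1 percentage points, and -6.86 without PNPT1 knockdown replicate 3. With genes of the mitochondrial genome (MT- genes) left out of the total, the share was 16.7%, 21.9% and 18.8% in the SUPV3L1 knockdown libraries, against 20.3%, 30.1% and 42.5% in the PNPT1 knockdown libraries. The groups now overlapped, since SUPV3L1 knockdown replicate 2 lay above PNPT1 knockdown replicate 1. The means were 19.1% ± 2.64 for SUPV3L1 knockdown and 31.0% ± 11.1 for PNPT1 knockdown (SD, n = 3 each), a difference of -11.8 percentage points, and -6.05 without PNPT1 knockdown replicate 3. MT- genes themselves took 34.4%, 33.6% and 41.98% of counts in the SUPV3L1 knockdown libraries, against 21.7%, 26.6% and 11.3% in the PNPT1 knockdown libraries. No p is given for a sum over genes that were chosen with their counts known. Wilson 95% intervals of these shares were within ±0.0425 percentage points and cover counting error only.

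The same pattern held for FPKM. The group took 43.9%, 56.8% and 49.9% of summed FPKM in the SUPV3L1 knockdown libraries, against 57.2%, 62.8% and 76.5% in the PNPT1 knockdown libraries, without overlap but with 56.8% beside 57.2% at the border. With MT- genes left out, the shares were 52.5%, 67.5% and 63.0% in the SUPV3L1 knockdown libraries, against 63.0%, 70.5% and 78.5% in the PNPT1 knockdown libraries, and the groups overlapped. The difference between the means was -15.3 percentage points with MT- genes in the total and -9.66 without them. Without PNPT1 knockdown replicate 3 these differences were -9.83 and -5.72 points.

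**Figure D1:**
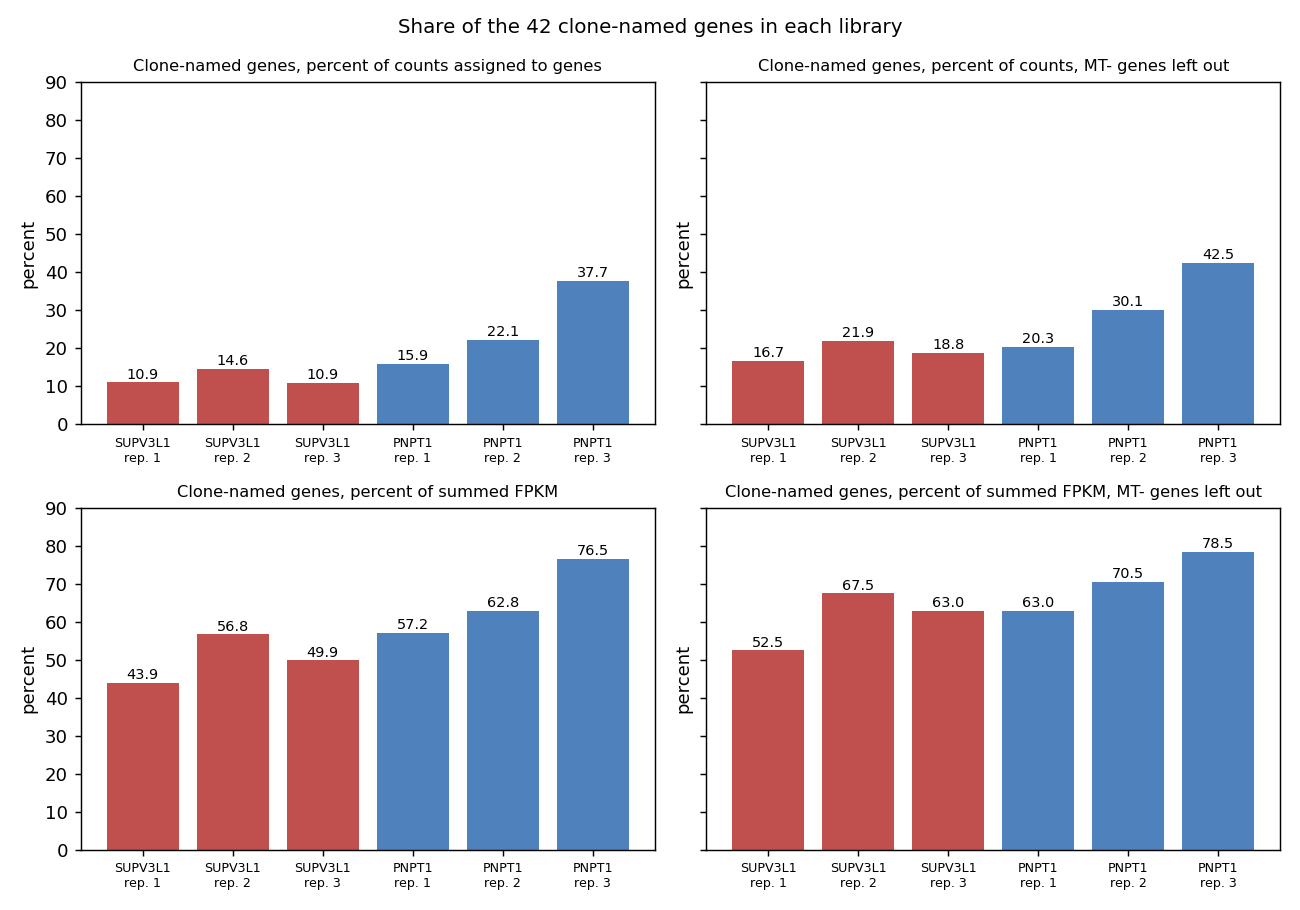
Bars give the percent of each library's total taken by the 42 clone-named genes, for counts (top) and FPKM (bottom), with all genes in the total (left) and with mitochondrially encoded genes left out (right). The SUPV3L1 knockdown libraries lie below the PNPT1 knockdown libraries in both left panels, and the groups overlap in both right panels.

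AL353644.10 followed the group that it dominates. With MT- genes left out, it took 14.4%, 19.6% and 16.9% of counts in the SUPV3L1 knockdown libraries, against 18.3%, 27.6% and 35.9% in the PNPT1 knockdown libraries, with overlap. The other 41 genes, with AL353644.10 and MT- genes both left out of the total, took 2.64%, 2.86% and 2.29% in the SUPV3L1 knockdown libraries, against 2.47%, 3.42% and 10.3% in the PNPT1 knockdown libraries. The difference between the means for these 41 genes was -2.80 percentage points, and -0.346 without PNPT1 knockdown replicate 3. PNPT1 knockdown replicate 1 lay within the range of the SUPV3L1 knockdown libraries. The size of the assigned total also differed between libraries. As a share of all file entries, alignments that were not counted included, the group took 1.76%, 2.15% and 1.499% in the SUPV3L1 knockdown libraries, against 1.90%, 3.21% and 2.66% in the PNPT1 knockdown libraries. On that total the groups overlapped and PNPT1 knockdown replicate 3 was no longer the highest.

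Single members were compared in one fit across all genes. The expression filter left 23 of the 42 members among 13275 genes, so counts over these 23 do not describe the 19 members with fewer reads. No member was called by edgeR's quasi-likelihood test with p-values adjusted over all genes (Benjamini-Hochberg), where 0% of all genes tested were called either. At an unadjusted p under 0.05 there were 10 of the 23, all with the lower level in SUPV3L1 knockdown, against 2.39% of all genes tested. The groups did not overlap for 9 of the 23, all lower in SUPV3L1 knockdown, against 3.94% of all genes tested. For 0 of the 23 were they apart in the other direction, against 4.62% of all genes tested. Of the 23, 22 had a log2 fold change below 0, with a median of -1.45 beside 0.01 over all genes tested. Without PNPT1 knockdown replicate 3 the median was -0.62, with 20 of 24 members below 0. In that fit 4 of the 24 had an unadjusted p under 0.05 by edgeR's quasi-likelihood test. Of these 4, 3 were lower in SUPV3L1 knockdown, as were 146 of the 14022 genes tested there at that p. PNPT1 knockdown replicate 3 had the highest CPM for 20 of the 23, and SUPV3L1 knockdown replicate 1 the lowest for 17. The TMM factor of PNPT1 knockdown replicate 3 was 0.670, against 0.988 to 1.21 in the other libraries, and a lower factor raises the scaled CPM. On unscaled shares of counts AL353644.10 and FP671120.4 were still highest in that library. AL353644.11 was then highest in PNPT1 knockdown replicate 2, at 0.135% against 0.104% in replicate 3. Members may share reads with each other, so they are not independent observations of a difference. The counts, medians and overlaps here therefore describe these libraries.

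**Figure D2:**
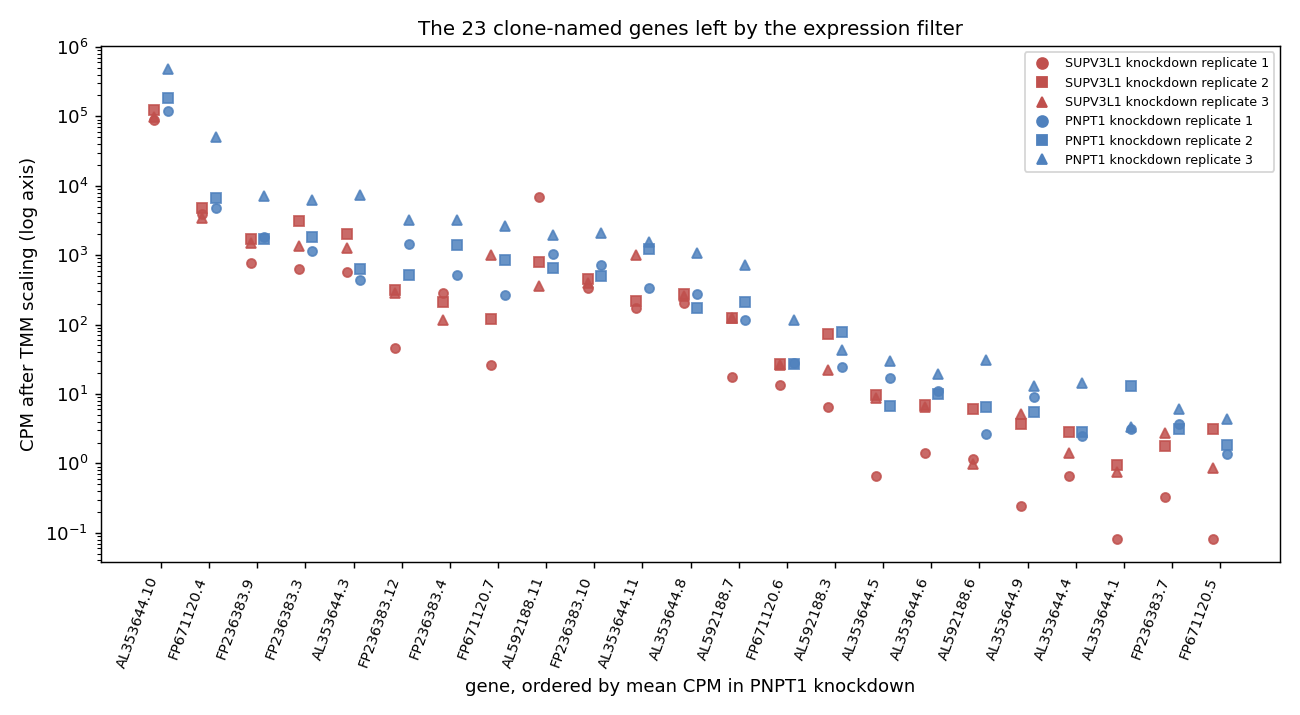
Points give CPM after TMM scaling (log axis) in each library for the 23 clone-named genes left by the expression filter, with SUPV3L1 knockdown left of PNPT1 knockdown for each gene. PNPT1 knockdown replicate 3 is the highest library for 20 of the 23 genes, and AL592188.11 is the one gene with its highest point far above the rest in SUPV3L1 knockdown replicate 1.

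FP236383.4, AL353644.1 and FP236383.12 had the smallest p-values among the members that were lower in SUPV3L1 knockdown. FP236383.4 was at 284, 214 and 118 CPM under SUPV3L1 knockdown, against 513, 1393 and 3195 CPM under PNPT1 knockdown. Its groups did not overlap, and its log2 fold change was -3.05 ± 0.67 (SE, edgeR's quasi-likelihood test, unadjusted p = 0.000979, Benjamini-Hochberg adjusted p = 0.898). FP236383.12 was at 45.7, 314 and 281 CPM under SUPV3L1 knockdown, against 1435, 524 and 3213 CPM under PNPT1 knockdown, which gave -3.01 ± 0.81 (SE) on the log2 scale. AL353644.1 had 1, 10 and 7 counts in the SUPV3L1 knockdown libraries, against 32, 149 and 13 in the PNPT1 knockdown libraries, and its log2 fold change of -3.47 ± 0.88 (SE) rests on these few counts, in libraries where the gene stood at 8141 to 56105 FPKM. DESeq2 called the same 3 members (adjusted p = 0.000997 for FP236383.4, 0.0144 for FP236383.12 and 0.0213 for AL353644.1), 3 of the 27 members to which it gave an adjusted p, against 0.0283% of all genes called lower. Without the expression filter edgeR called 9 of 34 members, all lower in SUPV3L1 knockdown, against 0.286% of all genes. Among these 9, FP236383.1 had 0, 1 and 0 counts under SUPV3L1 knockdown, against 76, 1 and 1 under PNPT1 knockdown. Its call thus rests on PNPT1 knockdown replicate 1. FPKM gave smaller differences for the 3 members called by DESeq2, with log2 fold changes on the log2(FPKM + 0.1) scale of -1.37 for FP236383.4, -1.10 for FP236383.12 and -0.84 for AL353644.1. No gene was called by limma on that scale (0% of genes tested).

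AL353644.10, FP671120.4, FP236383.9 and FP236383.3, which are 4 of the 5 members with the highest mean share, did not pass the test either. For AL353644.10 the log2 fold change was -1.33 ± 1.01 (SE), and leaving out PNPT1 knockdown replicate 3 made it -0.56. For FP671120.4 it was -2.34 ± 0.92 (SE), and -0.51 when that library was left out, in which it was at 49930 CPM. FP236383.9 was at 767, 1698 and 1503 CPM under SUPV3L1 knockdown, against 1808, 1737 and 7184 CPM under PNPT1 knockdown, and its log2 fold change of -1.43 ± 0.65 (SE) was -0.43 without PNPT1 knockdown replicate 3. FP236383.3 was at 624, 3079 and 1378 CPM under SUPV3L1 knockdown, against 1166, 1818 and 6284 CPM under PNPT1 knockdown. Its log2 fold change was -0.87 ± 0.75 (SE) with all libraries and 0.18 without PNPT1 knockdown replicate 3. So the size of the difference in AL353644.10, FP671120.4 and FP236383.9, and for FP236383.3 its direction, rested on that library.

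AL592188.11 was the one member of the 23 with a log2 fold change above 0, at 1.12 ± 0.93 (SE, adjusted p = 0.898 by edgeR's quasi-likelihood test). It had 83457, 8499 and 3377 counts in the SUPV3L1 knockdown libraries, against 10659, 7400 and 7719 in the PNPT1 knockdown libraries. A single library, SUPV3L1 knockdown replicate 1, was high, and without it the log2 fold change was -1.08. The FPKM of AL592188.11 did not show that library as high. It was 7667, 11499 and 6909 FPKM in the SUPV3L1 knockdown libraries, against 19835, 10712 and 30812 FPKM in the PNPT1 knockdown libraries. The 83457 counts were thus found in a library with the second lowest FPKM of the gene.

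By FPKM all 42 members could be compared. The groups did not overlap for 30 of the 42, all lower in SUPV3L1 knockdown, against 3.66% of all genes above the FPKM filter. The mean FPKM of SUPV3L1 over that of PNPT1 knockdown was below 1 for 41 of the 42, with a median of 0.471 and a range of 0.261 to 1.05. AL353644.10 was at 371916, 491594 and 366833 FPKM in the SUPV3L1 knockdown libraries, against 522889, 723498 and 1124407 FPKM in the PNPT1 knockdown libraries, so its FPKM groups did not overlap. As a share of each library's summed FPKM the groups of AL353644.10 did overlap. That share was 25.3%, 31.0% and 24.4% under SUPV3L1 knockdown, against 30.1%, 37.8% and 37.9% under PNPT1 knockdown. On the log2(FPKM + 0.1) scale the median log2 fold change of the members was -1.19, beside 0.17 over all genes above the filter, or -1.36 relative to it. SUPV3L1 knockdown replicate 1 had the lowest FPKM for 37 of the 42 and PNPT1 knockdown replicate 3 the highest for 28. FPKM of a library are parts of one total too, and the higher MT- share in SUPV3L1 knockdown (17.7% ± 2.71 of summed FPKM, against 7.52% ± 4.39 in PNPT1 knockdown; SD, n = 3 each) moves with these differences. Its part in them was not tested for single members. Summed FPKM also differed, at 1470704, 1585101 and 1503999 in the SUPV3L1 knockdown libraries, against 1738254, 1915468 and 2966724 in the PNPT1 knockdown libraries. Apart from the shares, the FPKM in this paragraph were not rescaled to a common sum.

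Counts and FPKM were compared next as 2 readings of the same libraries. The ratio of CPM (here without TMM scaling) to FPKM grows with the length of a gene where both readings use the same reads. Over the 6435 other genes with 50 counts or more in each library, its median was 7.39 to 8.23 per library and its 1st percentile 0.473 to 0.510. Of the 18 members with a mean of 50 counts or more, 17 lay below the 1st percentile in each library. The exception was AL592188.11, at 0.958 in SUPV3L1 knockdown replicate 1 and 0.0428 to 0.0738 in the other 5 libraries. Short genes have low values as well: over 68 of the other genes with fewer than 500 exonic bases the median was 0.339 to 0.361. RN7SK, a short structured RNA of 331 exonic bases named here after its values were seen, was at 0.404 to 0.444.

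AL353644.10 behaved like a short gene on this measure, and steadily so, at 0.255 to 0.283 in the 6 libraries. Among the 18 members with a mean of 50 counts or more, AL592188.3 and AL592188.6 had the lowest mean ratios. AL592188.3 had 78, 779 and 207 counts in the SUPV3L1 knockdown libraries, against 247, 899 and 169 in the PNPT1 knockdown libraries. Its FPKM were 9216, 23392 and 22193 in the SUPV3L1 knockdown libraries, against 26643, 27667 and 96900 in the PNPT1 knockdown libraries. PNPT1 knockdown replicate 3 thus had the highest FPKM of AL592188.3. It had fewer counts of that gene than 4 of the other 5 libraries, but also the smallest assigned total. In CPM with TMM factors the gene was at 6.39, 73.2 and 22.3 under SUPV3L1 knockdown, against 24.5, 78.3 and 43.1 under PNPT1 knockdown. AL592188.6 had 14, 65 and 9 counts in the SUPV3L1 knockdown libraries, against 27, 74 and 120 in the PNPT1 knockdown libraries, at 1034 to 2906 FPKM. The 8 members with 0 counts in each library had mean FPKM of 0.272 to 133, and AL592188.8 had 1 to 88 counts in a library with 9314 to 62735 FPKM. Across the 42 members the 2 readings ranked the genes alike within a library (Spearman's rho 0.80 to 0.88, over genes that may share reads, given as a description). They differed in steadiness. Among the 27 members with a count in each library, CPM in the highest library was a median of 12.5 times that in the lowest, and FPKM a median of 7.63 times. The range was wider in CPM for 23 of these 27. Some of the 27 had as few as 1 count in a library, such as AL353644.1, with a range of 162 times in CPM. For AL353644.10, the most counted, it was 3.36 times in CPM and 3.07 times in FPKM. How much of the wider range in CPM comes from low counts was not tested.

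**Figure D3:**
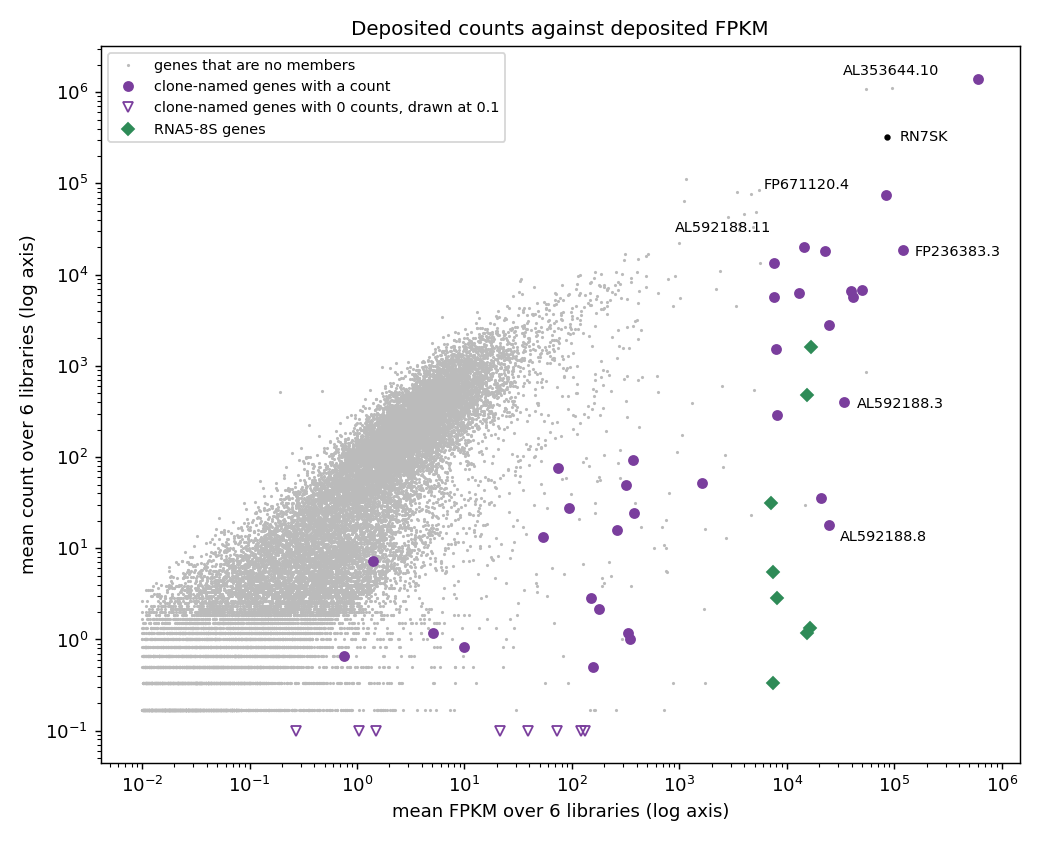
Each point is a gene, with its mean FPKM over the 6 libraries on the horizontal and its mean count on the vertical log axis. Clone-named genes with 0 counts are drawn at 0.1, and other genes with 0 counts are not shown. Most clone-named genes and the RNA5-8S genes lie to the right of or below the band of other genes, and AL353644.10 lies at the upper right end.

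Some members had nearly the same FPKM as members named after other clones. Of 861 pairs of members, 14 had FPKM that differed by at most 25% in each of the 6 libraries. This limit was chosen after the values were seen. Of these 14 pairs, 12 joined different clones. With 11, 12, 12 and 7 members per clone, most of the 861 pairs join different clones too, so nothing is read from that number. The 14 pairs formed 3 sets. The largest held AL353644.5, AL353644.9, AL592188.2, AL592188.9 and FP236383.7, with all 10 pairs within the limit. AL353644.5 stood at 72.4, 343 and 291 FPKM in the SUPV3L1 knockdown libraries, against 544.9, 381 and 575 FPKM in the PNPT1 knockdown libraries, and AL592188.2 at 66.8, 317 and 265 FPKM under SUPV3L1 knockdown, against 502, 333 and 513 FPKM under PNPT1 knockdown. Both were lowest in SUPV3L1 knockdown replicate 1 by a wide margin. Their counts differed: AL353644.5 had 8, 102 and 81 counts in the SUPV3L1 knockdown libraries, against 172, 77 and 117 in the PNPT1 knockdown libraries, while AL592188.2 had 0, 2 and 0 under SUPV3L1 knockdown, against 1, 2 and 2 under PNPT1 knockdown. The second set held AL353644.3, AL592188.7 and FP671120.6, at 4191 to 19300 FPKM and 165 to 28571 counts, and the third AL592188.4 and FP236383.5, at 19.5 to 260 FPKM and 0 to 6 counts.

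**Figure D4:**
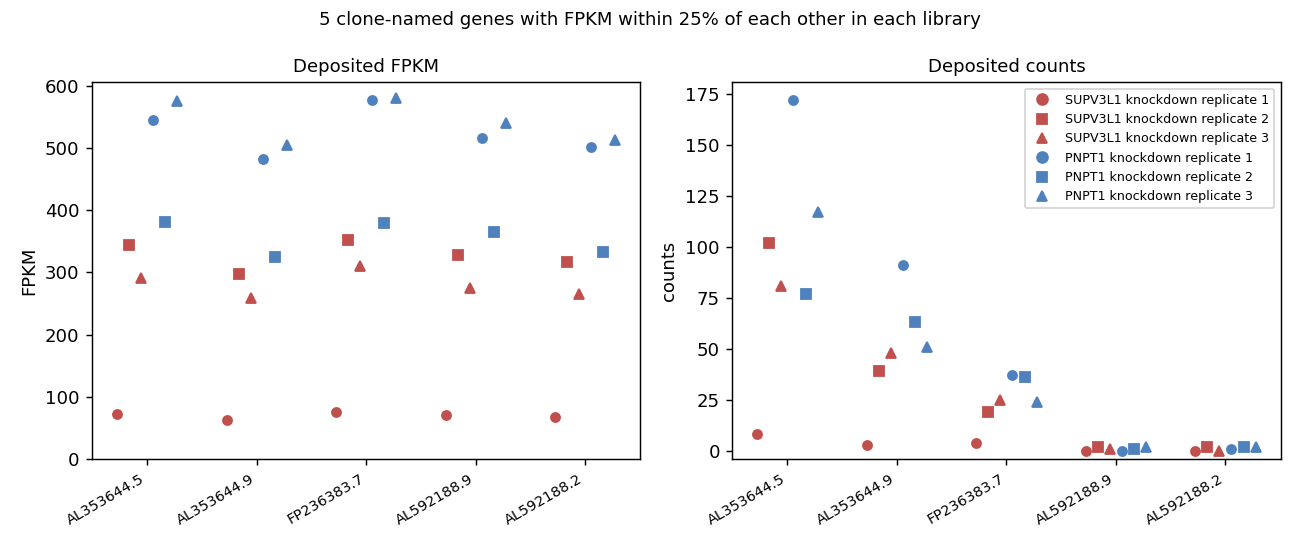
FPKM (left) and counts (right) of 5 clone-named genes from 3 clones in each library, with SUPV3L1 knockdown left of PNPT1 knockdown for each gene. FPKM are nearly equal across the genes within a library, while counts run from 0 to 172.

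The RNA5-8S copies showed the same parting of counts and FPKM where the sequences are known to be identical. The 4 copies on chromosome 21 printed above had mean FPKM between 15457 and 16917. The copy at 8395607 to 8395759 had 1095, 1292 and 1646 counts in the SUPV3L1 knockdown libraries, against 3704, 1169 and 863 in the PNPT1 knockdown libraries, while the copy at 8212572 to 8212724 (ENSG00000278233) had 0, 4 and 0 under SUPV3L1 knockdown, against 1, 1 and 2 under PNPT1 knockdown. The 4 equal sequences thus had mean FPKM within a narrow range and very different counts. Within a library their FPKM could be less close, with 9300 to 13419 in SUPV3L1 knockdown replicate 2. The 4 copies on unplaced scaffolds, whose sequences were not compared, had lower mean FPKM, at 7057 to 8172. Summed over the 8 copies, RNA5-8S took 8.34%, 4.31% and 4.30% of FPKM in the SUPV3L1 knockdown libraries, against 4.98%, 3.73% and 5.10% in the PNPT1 knockdown libraries. The groups overlapped, and SUPV3L1 knockdown replicate 1 had the highest share of 5.8S. The FPKM sums of the 8 copies were 122714, 68322 and 64669 under SUPV3L1 knockdown, against 86608, 71429 and 151281 under PNPT1 knockdown. By that sum PNPT1 knockdown replicate 3 was highest, followed by SUPV3L1 knockdown replicate 1, the library with the lowest FPKM for most clone-named genes. Whether counts of the clone-named genes come from ribosomal RNA was not tested.

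Other genes gave the surroundings of the group. The 587 genes named as ribosomal RNA genes or pseudogenes, or after CH507- clones, took 0.0184% to 0.0670% of counts and 3.91% to 8.77% of summed FPKM. Of the 11 left by the filter, 0 passed edgeR's quasi-likelihood test, 10 had a log2 fold change below 0 and the median was -0.88. CH507-513H4.3 (ENSG00000281181), a lincRNA at chromosome 21, 8437629 to 8438551, minus strand, was among the 3 most counted and had 823, 184 and 189 counts in the SUPV3L1 knockdown libraries, against 117, 65 and 272 in the PNPT1 knockdown libraries, with overlap. Of 29 genes for proteins of RNA polymerase I and ribosomal RNA processing, 0 passed, 20 had a log2 fold change above 0 and 9 below, and the median was 0.30. Over all genes tested, 6729 of 13275 lay above 0, with a median of 0.01. The 5649 genes with clone-type names outside the 4 prefixes took 0.0574% to 0.119% of counts. The 4 prefixes were chosen for their large share, so nothing is inferred from this contrast.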

How the data were processed

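The authors deposited 1 table of whole-number read counts per library, by Ensembl gene identifier, with 5 summary lines at the end that entered neither library sizes nor tests. The authors' deposited FPKM table covers the same 60675 genes. The submitters' processing notes name GRCh38 and, as tools, StringTie 2.1.4, HTSeq, HISAT2 2.2.1 and SAMtools 1.14. The annotation release, the strand setting, the treatment of reads with several positions and the tool behind the FPKM are not stated in the sources used here. Sense and antisense reads of a gene therefore cannot be told apart. Members were found by name in the FPKM table and joined to counts by identifier. Members, lists and tests were chosen with earlier results of these data known. Replicates were numbered in accession order and pair nothing.

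The main test on counts was that of edgeR 4.0.16 under R 4.3.3 (quasi-likelihood, TMM scaling, default filter with a minimum count of 10 and a total of 15), adjusted by Benjamini-Hochberg over all genes at a threshold of 0.05. It was also run on simulated counts with the same dispersion for all genes. That run does not show how the test performs at the spread of these libraries. Standard errors are the fold change over the root of its F statistic. DESeq2 1.42.0 and limma 3.58.1 on log2(FPKM + 0.1), for genes above 0.1 FPKM in 3 libraries or more, were alternatives. Groups overlap where their ranges do. A marker gene is not reported here. Exonic bases are the union of exons in GENCODE 29. Genes described in full were the 5 with the highest mean share, the most counted of each clone, the 3 with the smallest p in each direction and, among members with a mean of 50 counts or more, those with the 2 highest and 2 lowest mean ratios of CPM (counts scaled to library size) to FPKM.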

Additional observations from a re-analysis of the deposited data

How the results depend on the processing

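No paired analysis was possible because the labels give the libraries no replicate numbers shared between the groups. The count of genes called, 0 with edgeR, was 19 with DESeq2, 187 with edgeR without the expression filter and 0 to 1 with each library left out (1 without SUPV3L1 knockdown replicate 2). The count of clone-named genes called, 0 with edgeR, was 3 with DESeq2 and 9 without the filter (0.286% of all genes were called lower there), all lower in SUPV3L1 knockdown, and 0 with each library left out. The difference in the group's share of counts, -13.1 percentage points, was -0.791 as a share of all entries and -2.70 without AL353644.10, and -17.7 to -6.86 with each library left out. With MT- genes left out of the total it was -11.8, -2.80 without AL353644.10 as well, and -17.1 to -6.05 with each library left out. The share of FPKM differed by -15.3 points, and by -19.5 to -9.83 with each library left out. The causes were not tested, beyond the smaller numerators that follow from leaving out AL353644.10. The direction turned for FP236383.3 without PNPT1 knockdown replicate 3 (log2 fold change 0.18), for AL592188.3 without PNPT1 knockdown replicate 2 (0.0081), and for AL592188.11 without SUPV3L1 knockdown replicate 1 (-1.08) and on FPKM (-1.14 with either pseudocount). The members' median log2 fold change lay between -1.79 and -0.62 with each library left out and between -1.52 and -1.17 under the other settings. With scaling by size factors, without MT- genes or with scaling taken from other genes only, 22 of 23 stayed below 0. Counts limit the 17 members with a mean under 10 counts.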
